A study of Mus musculus with 6 samples.

Results

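The array labelled endogenous parvalbumin (PV) neurons was compared with the array of mouse embryonic fibroblasts (MEF). These are 2 of the 6 samples of the series, chosen by their titles, with 1 array each. All samples carry the same strain and genotype labels, C57BL/6 mice with a PV-GFP transgene, and the same stage, embryos of 13.5 days. The other 4 arrays hold fibroblasts under induction toward parvalbumin neurons (iPV) for 3, 7 and 14 days, and GFP-positive iPV cells sorted at day 14. Every sample, MEF and the one labelled endogenous PV included, has the same protocol text on fibroblast culture and infection with adenovirus, and the labels do not say from which tissue the endogenous cells came, how they were isolated or which promoter drives GFP. The series asked how closely induced fibroblasts come to resemble parvalbumin neurons, for which the endogenous sample is the reference. No group had a replicate, so every difference describes this pair of arrays and no test was possible.

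Parvalbumin neurons are fast-spiking inhibitory interneurons. They make the transmitter GABA with the enzymes encoded by Gad1 and Gad2, load it into vesicles with the transporter encoded by Slc32a1, and carry the calcium-binding protein parvalbumin. Embryonic fibroblasts are mesenchymal cells that divide in culture and secrete collagen and other matrix proteins, and they respond to infection and cytokines with interferon-stimulated and acute-phase genes.

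Values are log2 signals as deposited, 1 probe set per gene, for 22180 genes. Before a difference was taken, lower values were set to a floor of 5.01, the median over probe sets other than controls, and a fold that rests on a floored value is written "at least". Where a gene is given with a pair of values, the first is MEF and the second the endogenous-labelled array. Control probe sets, recognised here by their numbering, had medians of 4.64 in MEF and 4.62 on the endogenous-labelled array. Of the genes, 12719 lay above the floor in MEF and 12559 on the endogenous-labelled array, and 13390 lay above it on one or both and are called measured. The only error available is technical. For 368 genes with 2 or more probe sets above the floor on both arrays, the 2 brightest were compared. Their differences between the arrays had a spread of 0.42 log2 units per probe set, and for 41 of these genes (11.1%) they disagreed by 1 or more. This spread does not cover signals under the floor on either array. It also leaves out variation between cultures and animals. In RNA from many cells, fewer cells of a type and less RNA per cell cannot be told apart. Both arrays gave signal for the X-inactivation RNA Xist (8.95 and 8.80) and for the Y-linked gene Eif2s3y (7.61 and 7.01).

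The values went against the label of the endogenous sample. Pvalb stood at 5.23 in MEF, 5.76 (day 3), 6.15 (day 7) and 5.80 (day 14) during induction, 6.29 after sorting and 5.48 on the endogenous-labelled array. Pvalb was low on all 6 arrays, and the endogenous-labelled array ranked below the 4 iPV arrays. Its gaps to day 3 and day 14 were smaller than the technical spread of 0.42. Gad1 had 5.19 and 5.13 in MEF and on the endogenous-labelled array, Slc32a1 had 4.82 and 5.05, and Gad2 had 4.92 and 4.09, under the floor on both. Lhx6, a transcription factor of cortical interneurons, had 5.53 and 5.78. Of the neuronal proteins outside the GABA pathway, Syt1 (a calcium sensor of synaptic vesicles) had 5.38 and 5.24, Rbfox3 (the NeuN antigen) had 5.71 and 5.29, and Stmn2 (a microtubule regulator of growing axons) had 7.31 and 7.43. Snap25, a protein of vesicle fusion, was the 1 of these 9 markers past 2-fold. Snap25 had a log2 value of 6.53 on the endogenous-labelled array and 4.44 in MEF, and in iPV cells 5.999 (day 3), 6.44 (day 7), 6.90 (day 14) and 8.05 (sorted). MEF alone was under the floor, and the endogenous-labelled array lay at least 2.87-fold above it but below the sorted and day 14 iPV cells.

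Fibroblast genes were bright on both arrays. Collagen chains Col1a1 and Col1a2 had 12.34 and 11.75 on the endogenous-labelled array, against 12.31 and 12.10 in MEF. Pdgfra, a growth factor receptor of mesenchymal cells, had 11.44 against 11.57, and the mesenchymal transcription factors Prrx1 and Twist1 had 10.61 and 7.61 against 10.35 and 7.61. Over the fibroblast and matrix list, the mean log2 level was 9.91 on the endogenous-labelled array and 9.80 in MEF, with 34 and 33 of 35 genes above the floor. The parvalbumin interneuron list had mean levels of 5.22 and 5.13, with 11 and 10 of 20 genes above the floor. The sample is therefore called here by its label alone, as the endogenous-labelled array.

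**Figure D1:**
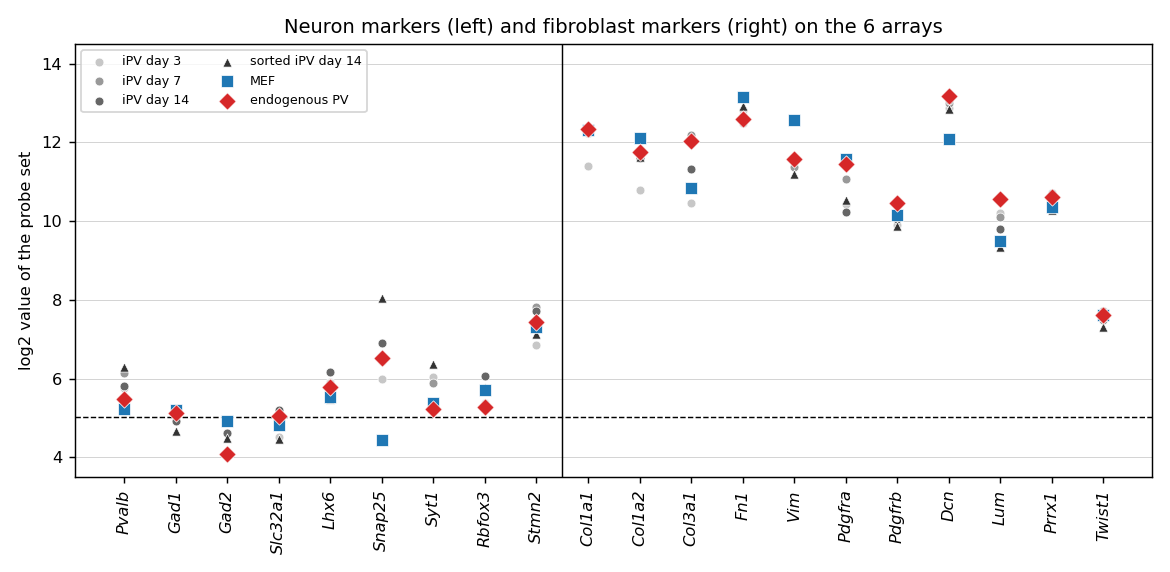
Log2 values of 9 markers of parvalbumin and other neurons (left) and 11 markers of fibroblasts (right) on the 6 arrays. Each point is 1 array, and the dashed line is the floor of 5.01. On the endogenous-labelled array (red) none of these 9 neuron markers exceeds 7.43, the value of Stmn2, while the fibroblast markers lie between 7.61 and 13.17.

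The pair of arrays differed by 2-fold or more for 688 of 13390 measured genes (5.14%). Of these, 473 (3.53%) were higher on the endogenous-labelled array and 215 (1.61%) were lower, so that 68.75% of the differing genes were higher. With each array centred on housekeeping genes in place of the deposited scale, 286 were higher and 453 lower, and 38.7% were higher. That centring aligned the median level of the housekeeping genes, 8.64 in MEF and 8.88 on the endogenous-labelled array. It moved the median difference of all measured genes from 0.04 to -0.19. The median difference of the housekeeping list itself went from 0.004 to -0.23. The centring is an alternative scale and does not show that the deposited scale is off. At 4-fold, 91 genes were higher and 11 lower, and at 8-fold 29 were higher and 2 lower. The middle 90 percent of differences lay between -0.67 and 0.85. The shares of 3.53% higher and 1.61% lower are the background for every list count below on the deposited scale.

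**Figure D2:**
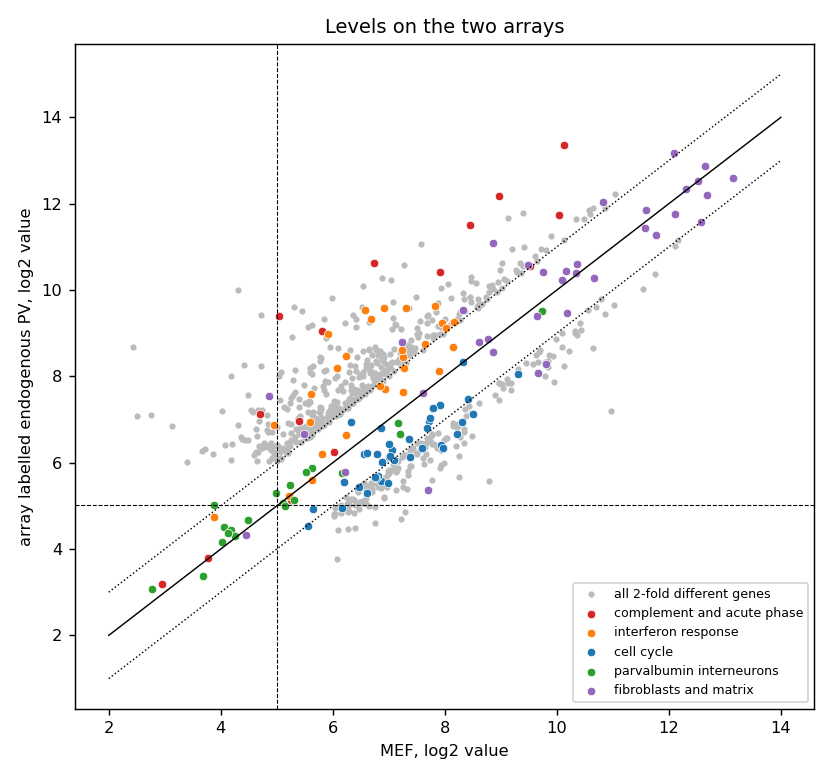
Log2 values in MEF (x axis) and on the endogenous-labelled array (y axis). Grey points are the 688 genes that differ 2-fold or more, coloured points are all members of 5 gene lists, the solid line marks equal values, dotted lines mark 2-fold and dashed lines the floor. Most acute-phase (red) and interferon (orange) genes lie above the diagonal, most cell cycle genes (blue) below it, and parvalbumin interneuron genes (green) near it at low values.

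Complement and acute-phase genes made up the list with the highest median. These proteins are secreted into blood and tissue fluid on infection and injury, and the complement part tags microbes and recruits leukocytes. Of 13 measured members, 11 were higher, 0 were lower, and the median difference was 2.52, beside 3.53% higher and a median of 0.04 over all measured genes. Hp had a log2 value of 9.40 on the endogenous-labelled array and 5.05 in MEF, and in iPV cells 6.34 (day 3), 8.40 (day 7), 8.19 (day 14) and 7.39 (sorted). Hp encodes haptoglobin, which binds free haemoglobin. Its value lay near the floor in MEF, intermediate in iPV cells and highest on the endogenous-labelled array, 20.5-fold above MEF. For Reg3g, MEF had 6.73, the iPV arrays 5.34 (day 3), 9.12 (day 7), 7.19 (day 14) and 4.15 (sorted), and the endogenous-labelled array 10.63. Reg3g, an antibacterial lectin, was highest on the endogenous-labelled array, 14.9-fold above MEF, and next highest at day 7, and it was under the floor in sorted cells.

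Saa3, a serum amyloid A protein, was bright throughout. Saa3 had a log2 value of 13.37 on the endogenous-labelled array and 10.12 in MEF, and in iPV cells 12.54 (day 3), 13.13 (day 7), 12.69 (day 14) and 12.45 (sorted). MEF was the lowest array, and the other 5 lay within a narrow range well above it. Lcn2, a lipocalin that withholds iron from bacteria, showed the same order of MEF against the rest, with 8.98 in MEF and 12.18 on the endogenous-labelled array (9.25-fold). Cfb, the protease of the alternative complement pathway, had 5.80 and 9.05 (9.53-fold), and Serpina3n, a protease inhibitor, had 8.45 and 11.51 (8.36-fold). Cp, the copper-carrying ferroxidase ceruloplasmin, had 7.91 and 10.43 (5.72-fold). C4b and C2, of the classical complement pathway, differed by at least 2.11 and by 1.57, and Serping1, which inhibits its first protease, by 1.69. Ptx3, a pattern-recognition pentraxin, passed 2-fold narrowly with a difference of 1.04. Outside the list, Lbp (which carries bacterial lipopolysaccharide) had 7.57 and 11.07, 11.3-fold higher, and A2m (a broad protease inhibitor) had 5.63 and 9.19, 11.8-fold higher.

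Acute-phase genes are known targets of C/EBP transcription factors, so promoters of the list were searched for the C/EBP site TTNNGCAA on both strands. The first 250 bases of each promoter sequence (GRCm38.p6) were searched, taken as the stretch upstream of the gene start. Of 13572 plus-strand promoters, 9896 began 250 bases before the RefSeq gene start, so for the others the stretch is placed differently. The C/EBP site was present in 5 of the 8 measured members with a promoter in the table, and in 4 of the 6 that were higher, beside 8.78% of 10401 promoters of measured genes. Matches in 4 of the higher genes are shown in their context of 70 bases, 5′ to 3′ in the direction of the gene, with the match in capitals.
Saa3, chr7:46715737-46715806, - strand: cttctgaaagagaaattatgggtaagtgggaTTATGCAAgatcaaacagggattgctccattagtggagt
Lcn2, chr2:32387917-32387986, - strand: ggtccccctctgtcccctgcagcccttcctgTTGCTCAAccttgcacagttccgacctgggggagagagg
Cp, chr3:19957148-19957217, + strand: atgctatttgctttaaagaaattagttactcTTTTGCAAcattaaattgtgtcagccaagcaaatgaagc
Ptx3, chr3:66219799-66219868, + strand: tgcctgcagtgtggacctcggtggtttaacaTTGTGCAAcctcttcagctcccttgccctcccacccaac
The match in Lcn2 is the reverse complement of the motif. The matches began 99, 216, 70 and 57 bases before the gene start. They show that the letters are present and nothing about binding.

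Interferon-stimulated genes were higher as well. Cells that sense viral nucleic acid secrete type I interferon, which through STAT proteins and IRF9 switches on genes that block viral replication. Of 27 measured members 17 were higher, 0 were lower and the median difference was 1.18, and 13 were higher after housekeeping centring. Among the transcription factors, Irf7, which amplifies interferon production, had the larger difference. For Irf7, MEF had 6.58, the iPV arrays 7.60 (day 3), 8.17 (day 7), 9.31 (day 14) and 8.35 (sorted), and the endogenous-labelled array 9.55. MEF was lowest, the endogenous-labelled array highest and day 14 next to it. Irf9, the DNA-binding subunit of the interferon complex, had 7.24 and 8.60 (2.57-fold).

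Among the effectors, Ifit1 binds viral RNA that lacks cap methylation. Ifit1 had a log2 value of 9.57 on the endogenous-labelled array and 6.91 in MEF, and in iPV cells 7.998 (day 3), 7.81 (day 7), 9.05 (day 14) and 8.40 (sorted). Usp18, a protease that removes the ubiquitin-like protein ISG15, had 6.69 and 9.33 (6.23-fold). Oas2, which makes the messenger that activates RNase L, had 6.24 and 8.47 (4.68-fold), and Mx2, a dynamin-like antiviral GTPase, had 6.07 and 8.20 (4.37-fold). Rsad2, the antiviral enzyme viperin, was higher on the day 14 array than on the endogenous-labelled array, at 8.10 against 7.60, with 5.61 in MEF. All 5 of these effectors were lowest in MEF. Not every member took part. Ifit3 had 5.62 and 5.60 and Oas3 had 5.22 and 5.23 in MEF and on the endogenous-labelled array.

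Gene families that interferon is known to induce were counted after their values had been seen. Of the guanylate-binding proteins (Gbp), 7 were measured and 6 were higher, with a median difference of 1.47. The Irgm, Igtp and Iigp GTPases, which attack the vacuoles of intracellular pathogens, were higher in 4 of 4. Iigp1 had 7.31 and 9.58 (4.82-fold). Oas and Oasl genes were higher in 5 of 6, with a median of 1.83. These families, and those of Saa3, Mup3 and the class I genes named elsewhere, hold near-identical copies, so a probe set may read more than 1 member.

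The interferon-stimulated response element was searched as GAAA, any 2 bases and GAAA again, on both strands, in the same 250 bases. It was present in 9 of the 19 measured list members with a promoter, in 7 of the 12 that were higher, and in 3.07% of all 10401. Of the matching promoters, 4 of higher genes are given in the same form, each over 70 bases.
Cxcl10, chr5:92349063-92349132, - strand: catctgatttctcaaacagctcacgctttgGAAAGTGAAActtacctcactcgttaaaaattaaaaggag
Ifit1, chr19:34640755-34640824, + strand: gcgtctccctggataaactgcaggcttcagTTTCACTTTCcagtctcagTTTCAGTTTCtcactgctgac
Rsad2, chr12:26456533-26456602, - strand: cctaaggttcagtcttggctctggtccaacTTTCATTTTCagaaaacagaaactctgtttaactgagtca
Gbp3, chr3:142559969-142560038, + strand: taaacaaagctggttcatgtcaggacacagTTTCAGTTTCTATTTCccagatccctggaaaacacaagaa
The reverse complement of the motif, which starts with TTTC, is the form in capitals in Ifit1, Rsad2 and Gbp3. Ifit1 and Gbp3 each held 2 matches, and those of Gbp3 overlap.

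Chemokines and inflammatory cytokines, the signals that draw leukocytes into tissue, had 10 higher and 1 lower of 29 measured members, with a median of 0.70, and 8 higher and 4 lower after housekeeping centring. The list shares Saa3 and Lcn2 with the acute-phase genes. Ccl5, a T cell and monocyte attractant, had the largest difference of the chemokines of this list. Ccl5 stood at 5.88 in MEF, 7.53 (day 3), 6.79 (day 7) and 8.27 (day 14) during induction, 8.14 after sorting and 8.88 on the endogenous-labelled array. Cxcl10, which attracts T cells through CXCR3 and stands in the interferon list, had 5.92 and 8.98 (8.37-fold), again lowest in MEF. Ccl11, the eosinophil attractant eotaxin, followed another order. Ccl11 stood at 8.06 in MEF, 7.40 (day 3), 8.99 (day 7) and 8.17 (day 14) during induction, 8.04 after sorting and 10.14 on the endogenous-labelled array. Day 3 was lowest there, MEF and the 2 day 14 samples lay together, and the endogenous-labelled array stood above day 7. Il33, an alarmin of stromal cells, had 5.63 and 8.06 (5.40-fold), and Il6, the inducer of the hepatic acute phase, had 6.59 and 8.28 (3.23-fold). Cxcl13, which attracts B cells and is not in the list, had 5.84 and 9.33 (11.3-fold). Ptgs2, the inducible cyclooxygenase, was the lower member, with 8.97 and 7.85.

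Class I antigen presentation differed less. Of 11 measured members, 3 were higher and 0 lower, all 11 lay above 0 and the median was 0.38, but no member passed 2-fold after housekeeping centring. H2-T23 differed by 1.17, H2-K1 by 1.02 and Tap1, a subunit of the peptide transporter, by 1.02.

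Markers of macrophages and microglia were present beside these immune genes on both arrays. Of 20 such genes, 17 lay above the floor on the endogenous-labelled array and 16 in MEF, and their mean log2 levels were 6.55 and 6.23. The 4 iPV arrays had means between 5.03 and 5.70. Lyz2, a lysozyme of myeloid cells, had 9.78 and 10.05 in MEF and on the endogenous-labelled array and 6.03 in sorted cells. Adgre1, an adhesion receptor of macrophages, had 7.06 and 7.69, and Fcer1g, an Fc receptor chain, had 8.32 and 8.19, while Ptprc (CD45) and Aif1 stayed under the floor on both. Tyrobp, an adaptor of myeloid receptors, was at least 3.24-fold higher on the endogenous-labelled array, with 4.84 and 6.71, and Itgam, the CD11b integrin, had 6.36 and 7.43 (2.10-fold). Tmem119, a marker of brain microglia that mesenchymal cells also express, had 6.29 and 8.11 and was about as high in iPV cells, with 8.26 at day 14. These were the 3 higher members of the 17 measured, and the median was 0.12. With housekeeping centring 2 were higher and 1 was lower, and the median turned to -0.11. Of the Clec4 genes, myeloid lectins counted after their values were seen, 4 were measured and 3 were higher. The part of macrophage RNA in the acute-phase, interferon and chemokine differences was not tested.

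**Figure D3:**
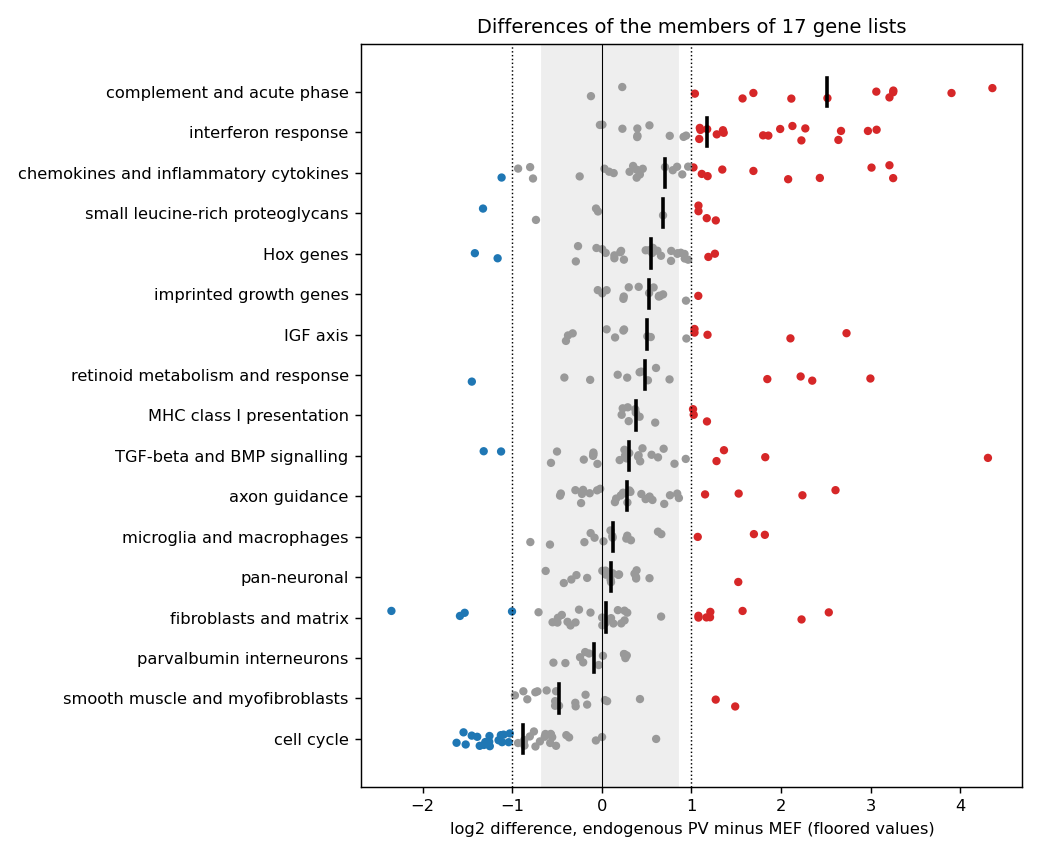
Log2 difference, endogenous-labelled array minus MEF, for the measured members of 17 gene lists. Each point is a gene, red at 2-fold or more higher and blue at 2-fold or more lower, black bars are list medians, and the grey band spans the middle 90 percent of all measured genes. The complement and acute-phase list lies farthest to the right (median 2.52) and the cell cycle list farthest to the left (median -0.87).

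Cell cycle genes were lower as a list. They encode the cyclins, kinases and spindle proteins of dividing cells. Of 38 measured members 17 were 2-fold or more lower, 0 were higher, 36 lay below 0 and the median was -0.87, beside 1.61% lower over all measured genes. Housekeeping centring raised the number lower to 23. Cenpe, a kinesin of the kinetochore, had the largest difference. For Cenpe, MEF had 7.96, the iPV arrays 6.07 (day 3), 7.25 (day 7), 5.89 (day 14) and 6.04 (sorted), and the endogenous-labelled array 6.34. MEF was highest, day 7 next, and the endogenous-labelled array lay with the remaining 3 at the lower level. Prc1, which bundles microtubules at the spindle midzone, had the same pattern. Prc1 stood at 8.22 in MEF, 6.55 (day 3), 7.76 (day 7) and 6.30 (day 14) during induction, 6.34 after sorting and 6.67 on the endogenous-labelled array. Ccnb2, a mitotic cyclin, had 7.94 and 6.42 in MEF and on the endogenous-labelled array and 7.50 at day 7. Top2a, the topoisomerase that untangles chromosomes, had 8.51 and 7.12 and 8.47 at day 7. Mki67, the proliferation antigen Ki-67, had 9.31 and 8.06, a difference of -1.25. Tyms, which makes thymidylate for DNA synthesis, differed the other way, by 0.61, within 2-fold. Outside the list, Cip2a, an inhibitor of the phosphatase PP2A, had 7.77 and 5.61 (4.47-fold lower).

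The cell cycle homology region TTTGAA, bound by the MuvB complex in promoters of mitotic genes, was searched in the same way. It was present in 9 of 32 members with a promoter, in 6 of the 17 that were lower, and in 12.6% of all promoters searched. It is a short motif and frequent, and 4 of the matching promoters are given.
Prc1, chr7:80294406-80294475, + strand: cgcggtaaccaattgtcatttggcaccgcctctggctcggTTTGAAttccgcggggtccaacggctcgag
Ccnb2, chr9:70421684-70421753, - strand: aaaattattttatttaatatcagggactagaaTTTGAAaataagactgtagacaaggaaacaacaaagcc
Top2a, chr11:99024331-99024400, - strand: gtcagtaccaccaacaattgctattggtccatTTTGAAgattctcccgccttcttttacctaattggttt
Ect2, chr3:27153955-27154024, - strand: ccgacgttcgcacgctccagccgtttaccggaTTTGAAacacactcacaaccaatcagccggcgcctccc
Top2a holds a second match, outside the stretch shown. The 3 motifs were searched separately, and matches of different motifs may overlap.

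Among matrix genes, members differed in both directions. The fibroblast and matrix list had 8 higher and 4 lower of 34 measured genes, and a median of 0.04. After housekeeping centring 3 were higher and 4 lower, and the median turned to -0.19. Dpt, the collagen-organising protein dermatopontin, was among the higher ones. For Dpt, MEF had 8.86, the iPV arrays 8.26 (day 3), 9.68 (day 7), 9.27 (day 14) and 8.36 (sorted), and the endogenous-labelled array 11.08. The endogenous-labelled array stood above all others. Col14a1, a fibril-associated collagen, was under the floor in MEF alone, with 4.86 and 7.54 in MEF and on the endogenous-labelled array (at least 5.78-fold). Col3a1, of type III collagen, had 10.83 and 12.04, and Fap, a surface protease of activated fibroblasts, had 7.23 and 8.80. In the other direction S100a4, a calcium-binding protein, had 7.71 and 5.36 (5.09-fold lower), Col6a3 had 9.67 and 8.09, Tgfbi had 9.81 and 8.28, and Vim, the filament protein vimentin, had 12.58 and 11.58, at the 2-fold limit.

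Small leucine-rich proteoglycans, which coat collagen fibrils and bind growth factors, had 4 higher and 1 lower of 9 measured, with a median of 0.68. Of the 9, 5 lay above 0 and 4 below. With the floor raised to 6.58, the upper quartile of probe sets, the median was 0. Decorin (Dcn) had 12.09 and 13.17, Ogn had 10.58 and 11.85, Lum had 9.49 and 10.57 and Podn had 8.85 and 10.03, each between 2-fold and 3-fold higher. Of the members below 0, Fmod alone passed 2-fold, with 9.05 and 7.72. Housekeeping centring left 1 of the 4 higher genes past 2-fold.

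Among matrix proteases and their inhibitors, 2 were higher and 1 was lower of 20 measured, and 2 were lower after housekeeping centring. Mmp13, a collagenase, had the largest negative difference of all named genes. For Mmp13, MEF had 10.97, the iPV arrays 6.26 (day 3), 6.72 (day 7), 6.01 (day 14) and 6.64 (sorted), and the endogenous-labelled array 7.21. MEF stood alone, 13.6-fold above the endogenous-labelled array, which was the highest of the other 5. Mmp9, a gelatinase, had 5.76 and 8.44 (6.38-fold higher), and sorted cells were close to it at 8.05. Tnn, the matrix protein tenascin-N, was likewise highest in MEF. Tnn had a log2 value of 5.58 on the endogenous-labelled array and 8.79 in MEF, and in iPV cells 5.55 (day 3), 5.37 (day 7), 4.79 (day 14) and 4.89 (sorted). The contractile list of smooth muscle and myofibroblasts had a median of -0.48, with 14 of 19 below 0, 2 higher (Des and Ankrd1) and 0 lower. After housekeeping centring the median was -0.71, with 2 higher and 3 lower. Acta2, smooth muscle actin, had 12.69 and 12.07, and Cnn1, calponin, had 8.20 and 7.23, neither past 2-fold on the deposited scale.

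Glycolysis and hypoxia genes had 3 higher and 1 lower of 20, with a median of 0.39. Egln3, a hypoxia-induced oxygen sensor, had 6.65 and 8.62 (3.90-fold), the glycolytic enzymes Pfkl and Hk2 differed by 1.62 and 1.25, and Txnip, an inhibitor of glucose uptake, differed by -1.38. The respiratory chain had 0 of 28 and cholesterol synthesis 0 of 17 past 2-fold in either direction, and 1 cholesterol gene was lower after housekeeping centring. The p53 response had 1 higher of 20 (5%), Sesn2. The amino acid response had 1 higher, Atf5, and 1 lower, Psat1, of 24 (4.17% each). Over all measured genes 3.53% were higher and 1.61% lower, so these single genes do not set either list apart. After housekeeping centring the p53 list also had 1 lower member, and Atf5 fell short of 2-fold. Immediate early genes had 0 of 21 past 2-fold.

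Retinoid genes, which take up vitamin A and turn it into the transcriptional ligand retinoic acid, had 4 higher and 1 lower of 14 measured, with a median of 0.48. Lrat stores retinol as esters. Lrat had a log2 value of 8.01 on the endogenous-labelled array and 4.18 in MEF, and in iPV cells 7.41 (day 3), 8.73 (day 7), 8.25 (day 14) and 9.37 (sorted). MEF alone lay under the floor, and the endogenous-labelled array was at least 7.98-fold higher, below sorted cells. Dhrs3, which reduces retinal, had 7.49 and 9.84 (5.09-fold), the receptor gene Rarb had 4.74 and 7.23 (at least 4.65-fold), and Cyp26b1, which degrades retinoic acid, had 6.77 and 8.61 (3.60-fold). All 3 were lowest in MEF and higher at day 14 than on the endogenous-labelled array. Crabp1, a binding protein of retinoic acid, was lower, with 9.93 and 8.48.

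In the insulin-like growth factor (IGF) list the median was 0.51, with 5 of 15 higher and 0 lower, and 2 were higher after housekeeping centring. Pappa2, a protease that frees IGF from its binding proteins, had 5.95 and 8.68 (6.64-fold), and Igfbp5, a binding protein, had 7.94 and 10.04 (4.30-fold). The ligand Igf1 had 7.22 and 8.25 and Igfbp3 had 11.04 and 12.22.

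TGF-beta and BMP signalling had 4 higher and 2 lower of 27 measured, with a median of 0.31. Gdf10, a ligand of the family, was 19.8-fold higher. Gdf10 had a log2 value of 9.61 on the endogenous-labelled array and 5.30 in MEF, and in iPV cells 7.92 (day 3), 9.67 (day 7), 7.27 (day 14) and 7.69 (sorted). Day 7 equalled the endogenous-labelled array within the technical spread, and MEF lay near the floor. Bmp6, Bmp7 and Tgfb2, also ligands, differed by at least 1.82, by 1.36 and by 1.28. Grem1, a secreted BMP antagonist, differed by -1.32 and the ligand Tgfb3 by -1.12.

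Wnt signalling had 5 higher and 1 lower of 31 measured, with a median of 0.16. After housekeeping centring 2 were higher and 1 was lower, and the median turned to -0.04. The secreted antagonists Frzb, Sfrp1 and Sfrp2 had differences of 1.97, 1.18 and 1.20, the receptor Fzd4 had 1.20 and the ligand Wnt4 had 1.28. Rspo2, which raises Wnt receptor levels, was lower, with 7.33 and 5.39 in MEF and on the endogenous-labelled array. Axon guidance genes had 4 higher and 0 lower of 31, with a median of 0.29. Of the secreted semaphorins, Sema3e had 5.59 and 8.20 (6.09-fold) and Sema3c had 7.35 and 9.59 (4.72-fold).

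Hox genes, which record position along the body axis, had 2 higher and 2 lower of 28 measured members of the fixed list. The median was 0.54, and 1 was higher after housekeeping centring. All Hox genes on the array were also split by paralogue group, a split chosen after the values were seen. In groups 1 to 9, 20 of 23 measured genes lay above 0 with a median of 0.57, and 19 lay above the median of all measured genes. Housekeeping centring also gave 19, but it shifts all genes of an array alike, so that count could hardly change. Many of these genes lay near the floor. With the floor raised to 6.58, their median was 0 and 10 of the 23 lay above the median of all measured genes. Hoxc8 had 7.68 and 8.95 and Hoxa5 had 5.48 and 6.67, and these were the 2 past 2-fold. In groups 10 to 13, 5 of 9 lay above 0 and the median was 0.12, which turned to -0.09 under housekeeping centring. The 2 lower genes were both of group 13, whose members pattern the digits and the genital tubercle, Hoxd13 with 6.53 and 5.11 and Hoxa13 with 6.32 and 5.16. Both lay near the floor on the endogenous-labelled array, and with the floor at 6.58, the upper quartile of probe sets, neither differed.

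The imprinted growth list had 1 higher of 15 measured (6.67%, beside 3.53% over all measured genes) and a median of 0.53. The higher gene was Dlk1, with 6.74 and 7.81, and it fell short of 2-fold with quantile normalization and with housekeeping centring. Dlk1 opens an imprinted interval on chromosome 12 that ends with Dio3 and holds a large group of microRNA genes expressed from the maternal chromosome. The interval was chosen after its values had been seen. Of 54 genes on the array 39 were measured, 11 were higher, 0 were lower, 35 lay above 0 and the median was 0.58. Its microRNA genes had 10 higher and 0 lower of 30 measured with a median of 0.57, beside 5 higher and 2 lower of 153 measured microRNA genes elsewhere, with a median of -0.07. Mir493 had the largest difference. Mir493 stood at 5.66 in MEF, 7.04 (day 3), 7.49 (day 7) and 6.80 (day 14) during induction, 7.85 after sorting and 8.25 on the endogenous-labelled array. Mir382 had 5.77 and 7.20, Mir679 had 5.52 and 6.85 and Mir1193 had 5.48 and 6.68. Of the long noncoding RNAs of the interval, Meg3 had 5.19 and 5.83 and Rian had 9.24 and 9.82, neither past 2-fold. Most of these values lay near the floor. With the floor raised to 6.58, 3 genes of the interval were higher and the median was 0, and after housekeeping centring 4 were higher. The probe sets were read here as gene signals, which do not separate a precursor from the mature microRNA.

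**Figure D4:**
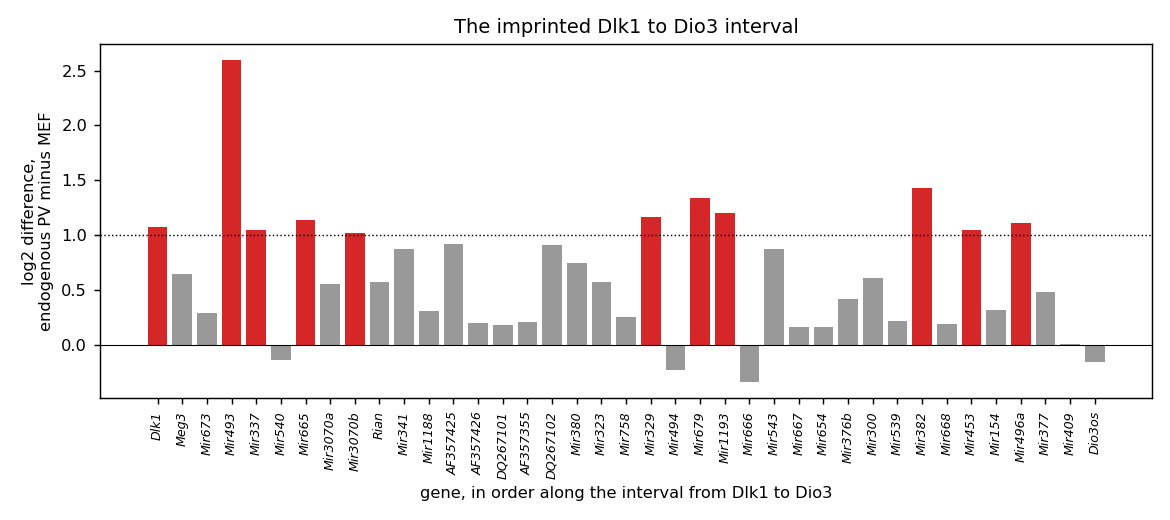
Log2 difference, endogenous-labelled array minus MEF, of the 39 measured genes between Dlk1 and Dio3, in their order along the chromosome. Red bars are the 11 genes past 2-fold (dotted line), of which Mir493 is the tallest at 2.60, and 4 bars lie below 0.

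The mature forms of the microRNA genes with the largest differences, and of 2 pairs that share a seed, are given from RefSeq (GRCm38.p6), 5′ to 3′, with bases 2 to 8, the seed that pairs with target messages, in capitals.
miR-493-5p, chr12:109580243-109580261, + strand: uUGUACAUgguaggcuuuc
miR-493-3p, chr12:109580283-109580305, + strand: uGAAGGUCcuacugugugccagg
miR-382-5p, chr12:109733781-109733802, + strand: gAAGUUGUucgugguggauucg
miR-382-3p, chr12:109733819-109733840, + strand: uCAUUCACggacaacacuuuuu
miR-679-5p, chr12:109715587-109715608, + strand: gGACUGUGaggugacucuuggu
miR-1193-5p, chr12:109715716-109715735, + strand: uGGUAGACcggugacguaca
miR-379-5p, chr12:109709065-109709085, + strand: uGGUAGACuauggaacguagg
miR-453, chr12:109735669-109735692, + strand: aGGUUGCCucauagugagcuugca
miR-496a-5p, chr12:109739132-109739152, + strand: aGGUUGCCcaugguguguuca
All 43 microRNA genes of the interval on the array matched the table, with 81 mature forms and 73 distinct seeds. The mature forms miR-453 and miR-496a-5p share a seed, and both genes were higher, by 1.04 and by at least 1.11. MiR-1193-5p shares its seed with miR-379-5p, whose gene lay under the floor on both arrays. The other forms shown each have a seed that no other mature form of the interval shares.

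The largest differences of single genes fell outside these lists in part. Folh1, the glutamate carboxypeptidase also known as prostate-specific membrane antigen, was at least 32.0-fold higher. Folh1 had a log2 value of 10.01 on the endogenous-labelled array and 4.32 in MEF, and in iPV cells 9.58 (day 3), 10.67 (day 7), 9.65 (day 14) and 9.44 (sorted). MEF alone lay under the floor. Mup3, a lipocalin that carries pheromones, had 4.72 and 9.43 (at least 21.4-fold). Fmo2, a flavin-dependent monooxygenase, had 5.44 and 9.52 (16.9-fold), and was higher still at day 14, at 10.42. Agtr2, the type 2 receptor of angiotensin II, had 5.98 and 9.82 (14.3-fold). Angpt1, the ligand of the endothelial receptor TIE2, had 5.56 and 9.14, and Steap4, a metalloreductase, had 6.53 and 10.10 (11.8-fold). Among the lower genes, Il31ra, a cytokine receptor, was at least 4.61-fold lower, with 7.22 and 4.69, Aldh1l2, a mitochondrial folate enzyme, had 8.25 and 6.16 (4.25-fold), Cd109, a surface glycoprotein, had 9.95 and 7.87 (4.23-fold), and Ptn, the growth factor pleiotrophin, had 10.65 and 8.65 (4.02-fold).

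The parvalbumin interneuron list had 0 higher and 0 lower of 12 measured and a median of -0.09, and the pan-neuronal list had 1 higher, Snap25, of 21 (4.76%), beside 3.53% higher over all measured genes. Of the GABAergic list 6 were measured and 1 was higher (16.7%), Abat, which breaks GABA down and is not specific to neurons. Abat had 5.79 and 7.23, and the mean of its probe sets gave a difference of 0.66, under 2-fold. Of 7 measured markers of other interneurons 2 were higher (28.6%) and 0 lower. Of the 7, 3 lay above 0 and 4 below, and the median was -0.01. Calb2, the calcium-binding protein calretinin, was at least 12.6-fold higher. Calb2 stood at 2.44 in MEF, 8.09 (day 3), 8.28 (day 7) and 9.45 (day 14) during induction, 9.88 after sorting and 8.67 on the endogenous-labelled array. MEF had a value far under the floor and all 5 others were well above it, the sorted cells most. Cck, a peptide of some interneurons and of gut cells, had 7.11 and 9.21 (4.29-fold). Gabra3, a GABA receptor subunit, had 5.67 and 7.74 (4.21-fold), and Scn3b, a sodium channel subunit, had 5.77 and 7.29 (2.87-fold). In the voltage-gated channel list 2 of 10 were higher. Haemoglobin and red cell genes had 0 measured members of 7 on the array.

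Where the endogenous-labelled array stood among the 6 arrays was described next. Of the 473 higher genes, MEF was the lowest of the 6 arrays for 339, and of the 215 lower genes MEF was the highest for 188. These genes were selected on a difference that uses the MEF value, so part of both counts follows from the selection. The share over all measured genes was not computed. Only 40 higher genes lay 2-fold or more above every other array, and only 2 lower genes, the small nucleolar RNAs Snora15 and Snord49b, lay 2-fold or more below every other. Over all small nucleolar RNA genes, 11 were higher and 6 lower of 70 measured. By this count, the array differed 2-fold from MEF for 688 genes, from day 3 for 607, from day 7 for 289, from day 14 for 352 and from sorted cells for 555. Pearson correlations with those arrays, over the 14295 genes above the floor on any array, were 0.939, 0.945, 0.967, 0.962 and 0.952. The genes share the same arrays and are not independent.

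Of the 40 genes, Vnn1, a pantetheinase, had the largest margin. Vnn1 had a log2 value of 7.65 on the endogenous-labelled array and 5.33 in MEF, and in iPV cells 5.02 (day 3), 5.42 (day 7), 5.18 (day 14) and 5.28 (sorted). The other 5 arrays lay close to the floor, and the margin over the highest of them was 2.23. Apod, the lipid carrier apolipoprotein D, had 9.81 against at most 8.11 elsewhere, in MEF. Cygb, the haem protein cytoglobin, had 8.60 against at most 6.96, and Lbp had 11.07 against at most 9.53. Reg3g, C4b, Dpt, Podn, Tyrobp, Itgam, Ccl7, Ccl11 and Cxcl9 were also among them, as were the myeloid genes Siglec1, Clec4n, Clec4d and Clec4a1. Tlr3, the sensor of double-stranded RNA, had 7.65 against at most 6.49, and Slc1a3, a glutamate transporter of astrocytes and other cells, had 7.69 against at most 6.68. None of the 40 is a member of the lists of parvalbumin, GABAergic or pan-neuronal genes. Those lists hold only 12, 6 and 21 of the 13390 measured genes, so their absence among 40 genes carries little information.

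**Figure D5:**
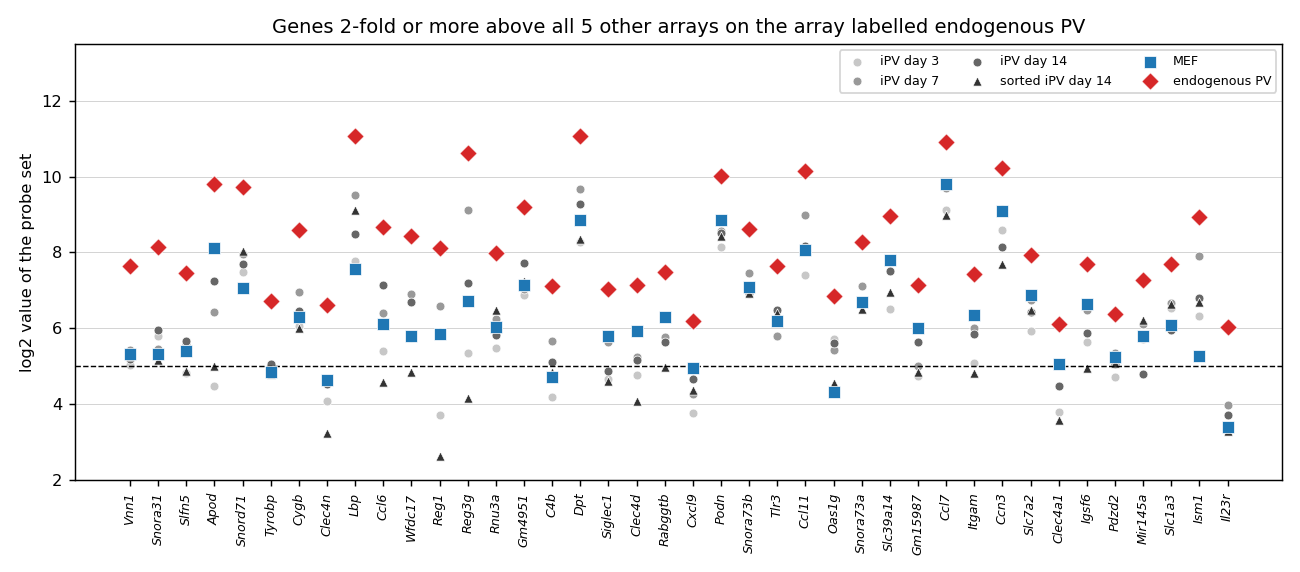
Log2 values of the 40 genes that lie 2-fold or more above all 5 other arrays on the endogenous-labelled array, ordered by that margin after values were raised to the floor (dashed line). Red diamonds are the endogenous-labelled array, blue squares MEF, and grey or black points the 4 iPV arrays, and the margin of Vnn1 at the left is 2.23.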

How the data were processed

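Total RNA (6 µg per sample, per the labels' protocols) was hybridised to Affymetrix arrays, 1 per group. The authors deposited log2 values for 41345 probe sets, made with Affymetrix Expression Console, per the submitters' processing notes. Not given in the sources used here were the version, algorithm, genome build and scan batches. Control probe sets (5333), taken to be those numbered below the first annotated probe set, were left out. The platform annotation named 1 gene for 23521 probe sets, more than 1 for 1814 and none here for 10677. RefSeq (GRCm38.p6) held 23328 of their Entrez identifiers and changed 0 symbols. For each gene the single-symbol probe set brightest on average was kept. Of 930 genes in 42 lists, 86 are not analysed here.

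Differences are endogenous minus MEF after flooring at 5.01, computed with Python 3.11.15, numpy 2.4.6 and pandas 2.3.3. The counting was also run on simulated arrays. These held planted changes well past the threshold in genes far above the floor, and noise smaller than the technical spread. That run checks the code and says nothing about errors near the threshold or the floor. The number of arrays limits the precision. Named genes were the 15 largest in each direction whose probe sets above the floor shared a direction (without predicted genes and small RNAs), up to 4 per list with the largest difference, and a preset list. Other genes named, including list members beyond those 4, were chosen after their values were seen. Members and lists were chosen with earlier results of these data known. Alternatives were quantile normalization, housekeeping centring, mean of probe sets, no floor, a floor at percentile 75 and a 4-fold threshold.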

Additional observations from a re-analysis of the deposited data

How the results depend on the processing

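No paired analysis was possible because each group is 1 array, and no array could be left out for the same reason. The 473 higher genes became 91 at a 4-fold threshold, 274 with the floor at percentile 75 and 286 with housekeeping centring, and lay between 416 and 643 under the other alternatives. The 215 lower genes became 11, 100 and 453 under the same settings and 397 with no floor. The share of differing genes that were higher, 68.75%, became 89.2% at 4-fold and 38.7% with housekeeping centring, and lay between 61.7% and 73.3% otherwise. Of the 40 genes above all 5 other arrays, the count was 2 at 4-fold and 25 with the higher floor. The 2 genes below all 5 others became 0 at 4-fold, 1 with the higher floor and 6 with no floor. The median of the skeletal muscle list was -0.32, and with the higher floor it was 1.37 over the members still measured. That value rests on the 1 member past 2-fold at that floor. Over the same 10 members as before, the median with the higher floor was 0, so the list as a whole did not reverse. Of 109 genes past 2-fold that the fixed rule names, 83 stayed past it with the higher floor and 93 with housekeeping centring. With quantile normalization 104 stayed and with the mean of probe sets 104, and 0 changed direction. With no floor all 109 stayed past it by construction, because a floor can only shrink a difference. A change of floor, or a shift as small as that of the centring, could not have turned the direction of these genes. Of the genes past 2-fold that are named in the text, the higher floor ended the call of Abat, Bmp6, Bmp7, C2, C4b, Clec4a1, Clec4d, Clec4n, Col14a1, Cxcl9, Des, Gbp3, H2-T23, Hk2, Hoxa13, Hoxa5, Hoxd13, Igtp, Il31ra, Itgam, Mir1193, Mir382, Mir453, Mir496a, Mir679, Rarb, Rspo2, Scn3b, Siglec1, Snap25, Tyrobp and Wnt4. Housekeeping centring ended that of Atf5, Ccl7, Clec4a1, Clec4d, Col3a1, Dcn, Dlk1, Fzd4, H2-K1, H2-T23, Hoxa5, Igf1, Igfbp3, Itgam, Lum, Mir1193, Mir453, Mir496a, Podn, Ptx3, Sfrp1, Sfrp2, Siglec1 and Tap1. The mean of probe sets ended that of Abat and Sfrp2, and quantile normalization that of Dlk1, H2-K1, Igf1, Itgam, Lum, Mir453, Ptx3 and Tap1. In the interval from Dlk1 to Dio3, examined under alternatives added after the data were seen, the count of higher genes lay between 3 and 15. Differences of genes near the floor are limited by signal over background, and 15 list medians, of at most 0.22 in size, changed sign under one or other scaling. For 10 of 26 differing genes with more than 1 probe set above the floor, the probe sets did not share a direction. Where no construction shows it, the cause of these shifts was not tested.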
